A study of Mus musculus with 11 samples.

Results

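Hmox1, Fth1 and Gpx4 are 3 genes that meet where cells handle heme, iron and oxidized lipids, and they are described here in every tumor-derived cell line of the series. The members were taken by gene name from the deposited table of expression values, and each name matched 1 row, giving 3 of 4461 genes. The lines came from mammary tumors of female NIC mice, in which 1 MMTV-driven transcript carries both the ErbB2 oncogene (Neu NDL 2.5) and Cre recombinase, so that the controls expressed Cre as well. In NIC/Cpt1a L/L mice the Cre acted on conditional alleles of Cpt1a, the enzyme that sets the rate of long-chain fatty acid entry into mitochondria. The control mice, NIC/Cpt1a +/+, carried wild-type Cpt1a. Tumors were taken at 8 weeks after palpation, dissociated and plated in serum-poor medium with EGF, hydrocortisone, insulin and pituitary extract, and the cells received no treatment. The 4 L/L lines are named KO_1922, KO_1925, KO_2768 and KO_4258, the 2 +/+ lines WT_5257 and WT_8905, which makes 6 lines. Each line is 1 culture grown out of a tumor, so the line was the replicate. In such bulk cultures, fewer cells of a type and less RNA per cell cannot be told apart. Lines had duplicate libraries (A and B), except KO_2768 with 1, which makes 11 libraries. The sample titles call A and B biol rep 1 and biol rep 2, while the study describes independent lines in duplicate. Each gene in the table has passed the authors' own test between the genotypes in these same libraries, which holds for all 3 members. Their separation by genotype is therefore not independent evidence, and every share of genes given below is a share of a preselected table.

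Heme oxygenase 1, the product of Hmox1, opens the heme ring and releases ferrous iron, carbon monoxide and biliverdin. Its gene is a well-known target of the stress factor Nrf2 and of the heme-sensing repressor Bach1. Fth1 encodes the heavy subunit of ferritin, the protein shell that stores iron, and this subunit carries the ferroxidase activity that oxidizes iron for storage. Gpx4 encodes glutathione peroxidase 4, a selenoenzyme that reduces lipid hydroperoxides inside membranes with glutathione. Free ferrous iron drives the chain reaction of lipid peroxidation, and loss of Gpx4 activity leads to the iron-dependent cell death called ferroptosis.

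The table measures RNA, and both Fth1 and Gpx4 carry RNA elements that set how much protein is made from it. Iron regulatory proteins bind a hairpin, the iron-responsive element, when iron is scarce. In a 5′ UTR the bound hairpin blocks translation, and in the 3′ UTR of the transferrin receptor it keeps the RNA from being degraded. Its pattern, an unpaired C, then 5 bases, then a 6-base loop that starts with CAGTG, was searched on the transcript strand of GENCODE M21 transcripts (build GRCm38). The 5 bases before the loop had to pair with the 5 bases after it, G with T allowed. Of 20899 genes with an annotated 5′ UTR, 31 (0.148%) held such a match, and Fth1, Ftl1 (the light ferritin subunit) and Slc40a1 (ferroportin, the iron exporter) were among them. Of 21022 genes with a 3′ UTR, 129 (0.614%) held a match, and Tfrc, the transferrin receptor that brings iron into the cell, held 4. Windows of 30 bases are shown to place the hairpin in the members and partners that the results return to, with the 6-base loop in capitals.
Fth1, exon 1, 5′ UTR, plus strand, chr19:9982729-9982758: ggtttcctgcttcaaCAGTGCttgaacgga
Ftl1, exon 1, 5′ UTR, minus strand, chr7:45459781-45459810: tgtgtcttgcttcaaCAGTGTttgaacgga
Slc40a1, exon 1, 5′ UTR, minus strand, chr1:45925467-45925496: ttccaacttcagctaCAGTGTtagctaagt
Tfrc, exon 19, 3′ UTR, plus strand, first of 4, chr16:32631216-32631245: gataattatcggaagCAGTGCcttccataa
Gpx4 is shown for another reason: its active-site residue is selenocysteine, read from an in-frame TGA codon that would otherwise end the protein. The codon lies in exon 3 and is codon 129 of the transcript Gpx4-201. A window of 27 bases is given with the codon in capitals.
Gpx4, exon 3, coding, plus strand, chr10:80054725-80054751: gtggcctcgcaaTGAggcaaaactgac
A match is a description of these letters, and binding or recoding was not measured.

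The deposited values of a gene are its read count, a normalized count (the read count over the library's size factor) and its FPKM, in which gene length and library total are divided out. Library totals, recovered from counts, lengths and FPKM, ran from 18247312 to 25386785 reads in L/L libraries and from 15199378 to 17372643 in +/+ libraries. Every L/L library was deeper than every +/+ library, so depth and genotype cannot be told apart. Cpt1a is not in the table, so its loss was not analysed here. Nor are any of the 5 luminal epithelium markers chosen (Epcam, Krt8, Krt18, Krt19 and Cdh1), so the labelled mammary epithelial identity could not be checked from them. Levels by line are given as CPM, in which duplicates were summed and the TMM factor corrects the library total.

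Hmox1 (ENSMUSG00000005413, chr8:75093591-75100596 on mm10, plus strand) was higher in every L/L library than in any +/+ library. Its FPKM was 47.0 and 50.1 in KO_1922, 63.5 and 70.3 in KO_1925, 70.0 in KO_2768, and 57.5 and 55.5 in KO_4258. In the +/+ lines its FPKM was 13.6 and 13.9 in WT_5257 and 21.8 and 24.4 in WT_8905. The L/L libraries sat within a narrow band and the +/+ libraries below it, with no overlap. These FPKM rest on 1494 to 2855 reads per L/L library and 332 to 639 reads per +/+ library. By line, Hmox1 was at 95.8 ± 16.1 CPM in L/L (SD, n = 4) and 30.5 ± 11.02 CPM in +/+ (SD, n = 2). In all 4 L/L lines it lay above both +/+ lines, as did 35.1% of all genes tested. The log2 fold change was 1.65 ± 0.30 (SE; 95% interval 0.91 to 2.40), with an adjusted p = 0.194 in edgeR's quasi-likelihood test across lines. The lowest L/L line, KO_1922, still stood 2.10 times above the highest +/+ line, WT_8905, in mean FPKM.

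Fth1 (ENSMUSG00000024661, chr19:9982703-9985092, plus strand) was among the most abundant transcripts of the table and spread widely among the L/L lines. Its FPKM was 3952 and 3752 in KO_1922, 5523 and 5334 in KO_1925, 8656 in KO_2768, and 16854 and 17297 in KO_4258. In the +/+ lines its FPKM was 1229 and 1214 in WT_5257 and 1470 and 1542 in WT_8905. The L/L libraries again lay above the +/+ libraries without overlap, and the KO_4258 libraries stood apart at the top. In all 4 L/L lines Fth1 lay above both +/+ lines, as did 35.1% of all genes tested. Among all listed genes, Fth1 ranked first by FPKM in 4 L/L libraries and second in the other 3, and ranked between 6 and 8 in the +/+ libraries. Fth1 reads made up 1.498% of library KO_4258B, the highest share (95% Wilson interval 1.493 to 1.503%), and 0.105% of library WT_5257B, the lowest (0.104 to 0.107%). The lowest L/L library, KO_1922B, was at 0.325% and the highest +/+ library, WT_8905B, at 0.134%. Wilson intervals cover counting error only. By line, Fth1 was at 7590 ± 5372 CPM in L/L (SD, n = 4) and 1216 ± 183 CPM in +/+ (SD, n = 2). The log2 fold change was 2.64 ± 0.76 (SE; 95% interval 0.77 to 4.51), with an adjusted p = 0.282 in edgeR's test. Without KO_4258 it was 2.06 ± 0.43 (SE), with an adjusted p = 0.189 in edgeR's test.

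Gpx4 (ENSMUSG00000075706, chr10:80047166-80056439, plus strand) went the other way and was lower in every L/L library than in any +/+ library. Its FPKM was 537 and 561 in KO_1922, 421 and 408 in KO_1925, 640 in KO_2768, and 817 and 861 in KO_4258. In the +/+ lines its FPKM was 1050 and 1055 in WT_5257 and 1110 and 1139 in WT_8905. The +/+ lines were close together, while the L/L lines were spread over a 2.02-fold range below them. By line, Gpx4 was at 602 ± 194 CPM in L/L (SD, n = 4) and 1116 ± 55.2 CPM in +/+ (SD, n = 2). In all 4 L/L lines it lay below both +/+ lines, as did 38.2% of all genes tested. The log2 fold change was -0.89 ± 0.32 (SE; 95% interval -1.67 to -0.11), with an adjusted p = 0.358 in edgeR's test. The gap between the nearest lines, KO_4258 and WT_5257, was 1.25-fold in mean FPKM, against 2.10-fold for Hmox1 and 2.56-fold for Fth1.

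**Figure D1:**
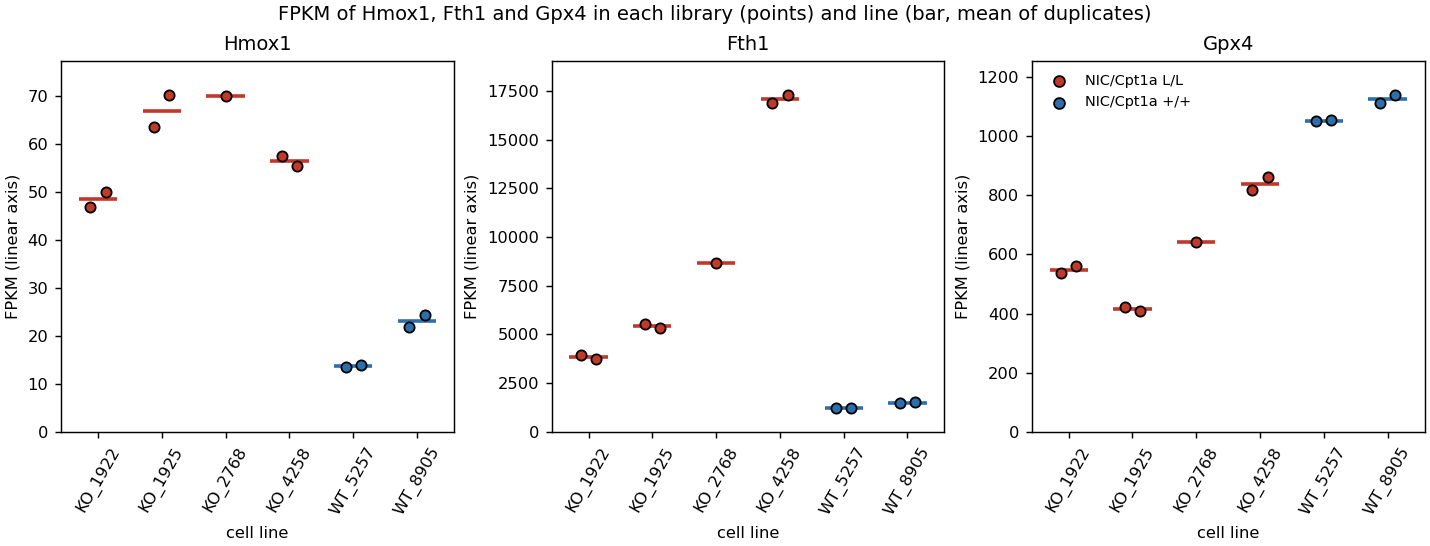
FPKM (linear axis from 0) of Hmox1, Fth1 and Gpx4 in each of 11 libraries (points) of 6 lines, with a bar at the mean of each line, in red for NIC/Cpt1a L/L and blue for NIC/Cpt1a +/+. Hmox1 and Fth1 were higher in each L/L library than in any +/+ library, Gpx4 was lower, and Fth1 in KO_4258 (16854 and 17297) lay far above the other lines.

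None of the members passed an adjusted p of 0.05 with lines as replicates, and neither did any other listed gene: 0 were called raised (0%) and 0 lowered (0%) of 4268 tested by edgeR. At an unadjusted p under 0.05, edgeR gave 917 higher (21.5%) and 1237 lower (29%) in L/L lines. Scaling by the authors' size factors turned these counts to 1122 higher and 920 lower. DESeq2 on the same line sums called 597 genes raised and 563 lowered after adjustment, among them Hmox1 (adjusted p = 0.000123) and Fth1 (adjusted p = 0.00305), and it gave Gpx4 an adjusted p = 0.156. The median log2 fold change of all tested genes was 0.49, and 58.6% were positive, so Gpx4 lay below the table's median by more than its own fold change.

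**Figure D2:**
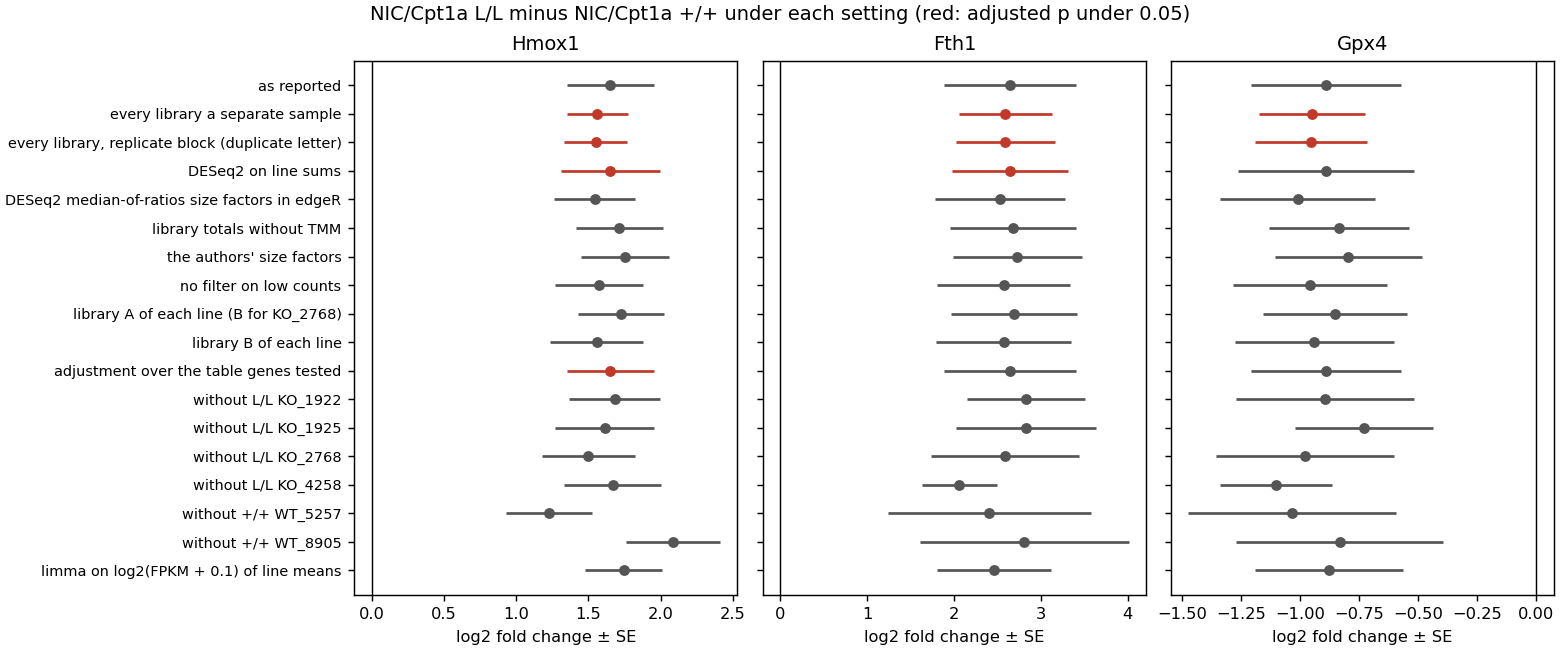
Log2 fold change of each member, NIC/Cpt1a L/L minus NIC/Cpt1a +/+, with its SE, under 18 settings, red where the adjusted p was under 0.05. No estimate changed sign: Hmox1 ran from 1.23 to 2.08, Fth1 from 2.06 to 2.83 and Gpx4 from -1.10 to -0.73. The settings reuse the same counts of preselected genes, so the unchanged signs are not independent evidence.

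The lines differed among themselves as well as by genotype. Duplicate libraries of a line were close: the larger normalized count exceeded the smaller by 1.01 to 1.12 times for Hmox1, 1.02 to 1.07 times for Fth1 and 1.00 to 1.08 times for Gpx4. Against that spread, edgeR called all 3 members different among the 4 L/L lines, with an adjusted p = 1.32e-07 for Hmox1, 1.70e-23 for Fth1 and 5.10e-16 for Gpx4. The same test called 85.7% of the genes tested, so a difference among L/L lines was the rule in this table. Between the 2 +/+ lines, edgeR called Hmox1 (adjusted p = 1.12e-14) and Fth1 (adjusted p = 5.55e-13), along with 68% of the genes tested, and gave Gpx4 an adjusted p = 0.366. These p-values rest on duplicate libraries of a line, whose spread may be technical.

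The SD of log2 CPM over the L/L lines was 0.26 for Hmox1, 0.97 for Fth1 and 0.46 for Gpx4, against a median of 0.44 over all tested genes. Hmox1 was thus the most even of the members across L/L lines and Fth1 the most uneven. Between the +/+ lines Hmox1 was the most uneven of them: the absolute difference in log2 CPM was 0.75 for Hmox1, 0.31 for Fth1 and 0.10 for Gpx4, against a median of 0.51.

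Lines were also compared in pairs, in 1 edgeR fit to the 11 libraries, where KO_2768 with its single library was assumed to vary like the others. Each side of a pair is 1 culture, so these tests set a difference between cultures against the spread of duplicate libraries alone, in genes already chosen for a genotype difference, and say nothing of genotype. All 8 pairs of an L/L with a +/+ line passed an adjusted p of 0.05 for each member, with log2 differences of 0.89 to 2.26 for Hmox1, 1.18 to 3.79 for Fth1 and -1.60 to -0.34 for Gpx4. Of all genes tested, the pairs with WT_5257 called 88.8% for KO_1922, 89.2% for KO_1925, 81.4% for KO_2768 and 83.1% for KO_4258. The pairs with WT_8905 called 82.9%, 82.1%, 74.4% and 78.7% in the same order. Among the 6 pairs of L/L lines, all 6 passed for Fth1 and for Gpx4 and 4 passed for Hmox1. Of all genes, KO_1922 against KO_1925 called 35.9%, KO_1922 against KO_2768 called 52.3%, KO_1922 against KO_4258 called 64.6% and KO_2768 against KO_4258 called 64.7%. From low to high, the order for Hmox1 was WT_5257, WT_8905, KO_1922, KO_4258, KO_1925 and KO_2768. The step from KO_4258 to KO_1925 was 0.16 on the log2 scale (95% interval 0.03 to 0.28, adjusted p = 0.0777 in edgeR's test), and this pair called 65.5% of genes. The step from KO_1925 to KO_2768 was 0.08 (95% interval -0.06 to 0.23, adjusted p = 1 in edgeR's test), and this pair called 56.2% of genes. The other neighbours in that order differed by more than the duplicate spread.

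For Fth1 the order was WT_5257, WT_8905, KO_1922, KO_1925, KO_2768 and KO_4258, and every step exceeded the duplicate spread in the same test. Its step from KO_2768 to KO_4258 was 1.05 on the log2 scale (95% interval 0.93 to 1.18). For Gpx4 the order was KO_1925, KO_1922, KO_2768, KO_4258, WT_5257 and WT_8905. Its last step, between the +/+ lines, was 0.15 (95% interval 0.06 to 0.25, adjusted p = 0.0185 in edgeR's test), with 54.4% of genes called for this pair. That step passed here and not in the fit to the +/+ libraries alone (adjusted p = 0.366 in edgeR's test).

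Among the L/L lines, Fth1 and Gpx4 had nearly the same order although they differed from the +/+ lines in opposite directions: KO_4258 was highest and KO_2768 second in both, and KO_1922 and KO_1925 changed places. Hmox1 had another order, in which KO_4258 was the second lowest and KO_2768 the highest. KO_1925 had the lowest Gpx4 and the second highest Hmox1 of the L/L lines. With 4 L/L lines these orders are a description.

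The ferritin subunits assemble into a shared shell whose make-up follows the supply of each subunit, so Fth1 was set against Ftl1 by FPKM, which is a level per length. Ftl1 FPKM by line was 1075 in KO_1922, 1991 in KO_1925, 1532 in KO_2768 and 3232 in KO_4258, and 808 in WT_5257 and 1232 in WT_8905. The light subunit overlapped between genotypes, since KO_1922 was below WT_8905. Its log2 fold change was 0.89 ± 0.52 (SE; 95% interval -0.40 to 2.18), with an adjusted p = 0.670 in edgeR's test. Fth1 exceeded Ftl1 by 3.58 times in KO_1922, 2.73 times in KO_1925, 5.65 times in KO_2768 and 5.28 times in KO_4258. The ratio was 1.51 in WT_5257 and 1.22 in WT_8905, below every L/L line. The mean ratio was 4.31 ± 1.39 in L/L (SD, n = 4) and 1.37 ± 0.20 in +/+ (SD, n = 2), with p = 0.133 in a two-sided exact permutation test of the log2 ratios. With 4 against 2 lines this is the smallest two-sided p the test allows. Both genes had passed the authors' test of genotypes in these same libraries, so the separation of this ratio is not independent evidence.

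Fth1 and Gpx4 were near the same level per length in the +/+ lines and far apart in the L/L lines. The FPKM ratio of Fth1 to Gpx4 was 7.02 in KO_1922, 13.1 in KO_1925, 13.5 in KO_2768 and 20.3 in KO_4258, against 1.16 in WT_5257 and 1.34 in WT_8905. Since Fth1 and Gpx4 each separated the genotypes, in opposite directions, this ratio had to separate them too, and it carries no test. The ratio of Fth1 to Hmox1 overlapped between genotypes, from 79.3 to 302 in L/L lines and from 65.2 to 88.9 in +/+ lines (exact permutation p = 0.400).

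**Figure D3:**
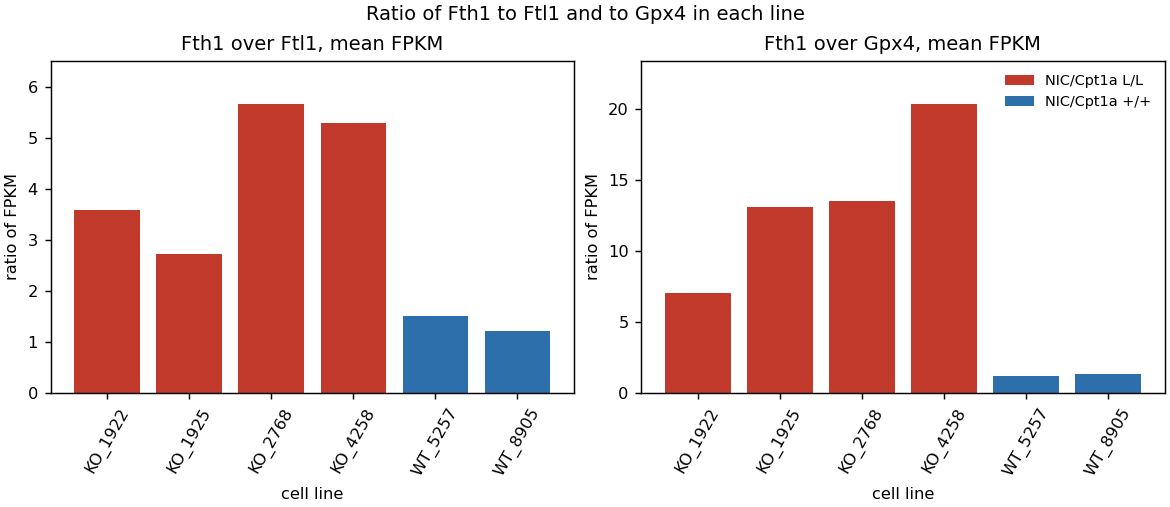
Ratio of Fth1 to Ftl1 (left) and of Fth1 to Gpx4 (right) in each line, from mean FPKM, with bars from 0 in red for NIC/Cpt1a L/L and blue for NIC/Cpt1a +/+. Fth1 over Ftl1 was 2.73 to 5.65 in L/L lines against 1.22 and 1.51 in +/+ lines, and Fth1 over Gpx4 was 7.02 to 20.3 against 1.16 and 1.34.

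Markers of other cell types were set beside these values. Csf1r, the receptor that macrophages depend on, was at 312 CPM in KO_4258, the line with the highest Fth1 and Ftl1, against 4.03 in KO_1922, 17.2 in KO_1925, 0.0775 in KO_2768, 0.0316 in WT_5257 and 0.437 in WT_8905. From low to high, Csf1r had the same order of lines as Fth1 except for KO_2768, which had the lowest Csf1r of the L/L lines and the second highest Fth1. Of 7 macrophage markers only Csf1r and Cd163 are in the table, and Cd163 went the other way by genotype. Cd163 was at 3.08 CPM in KO_1922, 0.235 in KO_1925, 4.65 in KO_2768 and 14.03 in KO_4258, against 74.6 in WT_5257 and 28.6 in WT_8905. Their sum, 4.73 to 327 CPM in L/L and 29.0 to 74.6 CPM in +/+ lines, thus joins 2 markers that differ in direction. Of 7 fibroblast markers 4 are in the table, and their sum was 1393 CPM in KO_2768, nearly all of it Dcn, against 0 to 7.77 CPM in the other L/L lines and 0 to 0.0937 CPM in +/+ lines. KO_2768 had the highest Hmox1, 111 CPM, and KO_1925 had 105 CPM with a fibroblast marker sum of 3.29 CPM. Without KO_2768 the log2 fold change was 1.5 ± 0.32 (SE) for Hmox1 and 2.59 ± 0.85 (SE) for Fth1. Of 4 basal epithelium markers only Acta2 is listed, at 0.0460 to 3.88 CPM in L/L and 0 to 0.0937 CPM in +/+ lines. Of 3 adipocyte markers only Fabp4 is, at 0.437 to 2.13 CPM in L/L and 0 to 0.125 CPM in +/+ lines. The leukocyte, endothelium and erythroid markers are not in the table, the globins among them, and were not analysed here. The part of other cells in the members' levels was not tested.

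Other genes of heme metabolism were read from a list of 12 heme synthesis genes and a list of 16 genes of heme breakdown and transport. Here and below a gene counts as passing at an unadjusted p under 0.05 in edgeR's test, which 21.5% of all genes did upward and 29% downward. Of the synthesis genes 4 were analysed in the table, of which 0 passed upward and 1 downward, with a median log2 fold change of -0.51 against 0.49 for all genes. The gene passing downward was Uros, which closes the porphyrin ring (-0.90 ± 0.34, SE). Alas1, the first and rate-limiting enzyme outside red cells, was at 32.7 ± 5.44 CPM in L/L (SD, n = 4) and 44.7 ± 5.83 CPM in +/+ (SD, n = 2). It did not pass (unadjusted p = 0.0883, adjusted p = 0.509 in edgeR's test). Alad, an early enzyme, leaned the other way at 0.88 ± 0.42 with overlapping groups.

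Of the breakdown and transport genes 7 were listed, of which 2 passed upward and 3 downward, with a median of 0.72. Beside Hmox1, the one passing upward was Slc48a1, a transporter that brings heme out of lysosomes (0.72 ± 0.27, SE; 86.6 against 52.7 CPM). Passing downward were Slc46a1, a folate transporter that was also described as a heme carrier (-1.33 ± 0.30), and Abcg2, an exporter of drugs and porphyrins (-1.96 ± 0.53). The third was Cd163, the scavenger receptor for hemoglobin bound to haptoglobin (-3.23 ± 1.26). Haptoglobin itself (Hp, 2.72 ± 1.91) and the hemopexin receptor Lrp1 (2.32 ± 1.56) did not pass, and their groups overlapped. Hmox2, the constitutive heme oxygenase, and the biliverdin reductases are not in the table and were not analysed here.

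Iron storage was covered by 6 genes, of which 4 were listed: 1 passed upward, Fth1 itself, and 1 downward. The latter was Pcbp1, a chaperone that hands iron to ferritin (283 ± 7.84 CPM in L/L, SD, n = 4, and 409 ± 82.2 CPM in +/+, SD, n = 2). Its log2 fold change was -0.53 ± 0.17 (SE). The related chaperone Pcbp2 was at 0.49 ± 0.28 and did not pass.

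Of 26 genes of iron uptake, export and sensing, 11 were listed and 10 tested, of which 3 passed upward and 4 downward, with a median of -0.07. In each of the 11 the L/L lines lay all above (6 genes) or all below (5 genes) both +/+ lines, where 35.1% and 38.2% of all tested genes did so. Cybrd1, among those above, had too few reads to be tested, with 0.170 CPM in KO_1922 against 0.156 CPM in WT_8905. Tfrc and Slc40a1, whose hairpins are shown above, were among those lower in L/L. Tfrc was at 254, 294, 208 and 189 CPM in KO_1922, KO_1925, KO_2768 and KO_4258, and at 450 and 326 CPM in WT_5257 and WT_8905 (-0.72 ± 0.25, SE). Slc40a1 was at 14.2, 19.99, 6.63 and 10.3 CPM in the same L/L lines and at 43.2 and 43.8 CPM in the +/+ lines (-1.77 ± 0.44). Of the RNAs shown above with a paired 5′ UTR hairpin, Fth1 was higher and Slc40a1 lower in L/L lines, and Ftl1 overlapped. Other genes with such a hairpin were not examined. A bound 5′ UTR hairpin acts on translation, which RNA levels do not measure.

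Ireb2, which encodes iron regulatory protein 2, was lower (-0.76 ± 0.19, SE), and Fbxl5, the ubiquitin ligase subunit that degrades that protein when iron is plentiful, was higher (0.58 ± 0.20). Steap1 and Steap2, metalloreductases of the cell surface and endosomes, had the largest upward values of this list (5.01 ± 0.99 and 3.33 ± 1.33). Steap2 was at 120 to 164 CPM in L/L lines, and at 0.694 CPM in WT_5257 and 27.7 CPM in WT_8905, so its +/+ lines differed widely. Slc39a8, a metal importer, was lower (-2.91 ± 0.84). Slc11a2, the divalent metal transporter, and Slc25a37, the mitochondrial iron importer, were higher in all L/L lines without passing. Slc11a2 had an unadjusted p = 0.101 (adjusted p = 0.549) and Slc25a37 an unadjusted p = 0.0678 (adjusted p = 0.453) in edgeR's test.

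Lipid peroxide defence was read from 19 genes, of which 8 were listed and tested. Of these, 2 passed upward and 4 downward, with a median of -0.03. With Gpx4 on the lower side were Mgst1 and Mgst2, membrane glutathione transferases with peroxidase activity, and Aldh3a2, which oxidizes fatty aldehydes. Mgst1 was at 220, 224, 393 and 253 CPM in KO_1922, KO_1925, KO_2768 and KO_4258 against 959 and 817 CPM in WT_5257 and WT_8905 (-1.70 ± 0.28, SE). Mgst2 was at -1.74 ± 0.23 and Aldh3a2 at -1.42 ± 0.31. Prdx6, a peroxiredoxin that reduces phospholipid hydroperoxides, was on the higher side (0.83 ± 0.31), with 285 ± 76.7 CPM in L/L (SD, n = 4) and 161 ± 11.9 CPM in +/+ (SD, n = 2). Mgst3 was also higher (1.27 ± 0.50). Gpx3, the secreted glutathione peroxidase, was at 140 CPM in KO_2768 and at 0.851 to 2.79 CPM in the other L/L lines.

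Glutathione is the substrate of Gpx4, and of 12 genes of its supply 3 were analysed in the table: 0 passed upward and 0 downward. Gsr, which recycles oxidized glutathione, was at 1.19 ± 0.60 (SE), with KO_2768 (54.4 CPM) below both +/+ lines (69.8 and 81.8 CPM). Cbs and Ggt1 were at 1.67 CPM or less in every line, and Cbs had at most 1 read in a +/+ library, so its fitted fold change is no bound.

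Polyunsaturated phospholipids are what lipid peroxidation consumes. A list of 22 genes of lipid making and oxidation gave 10 listed, of which 1 passed upward and 5 downward, with a median of -0.79. The list also holds Scd1 and Scd2, which make monounsaturated fatty acids, so these counts are not of polyunsaturated lipids alone. Acsl4, which activates polyunsaturated fatty acids for membrane phospholipids, was at 566, 452, 402 and 278 CPM in KO_1922, KO_1925, KO_2768 and KO_4258 and at 1731 and 2294 CPM in WT_5257 and WT_8905. Its log2 fold change was -2.25 ± 0.31 (SE; adjusted p = 0.142 in edgeR's test). Scd1, which makes monounsaturated fatty acids, had the lowest value of the list, -4.34 ± 0.30 (adjusted p = 0.0838). Scd2, the elongase Elovl5 and Agps, an enzyme of ether lipid synthesis, also passed downward, from -0.92 to -0.54. Lpcat3, which places polyunsaturated chains on phospholipids, was at -0.70 ± 0.29 and narrowly did not pass (unadjusted p = 0.0542, adjusted p = 0.417 in edgeR's test). The gene that passed upward, Alox5, had at most 1 read in a +/+ library and 0 reads in both KO_4258 libraries, so the groups overlapped.

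Gpx4 needs selenocysteine, and of 31 selenoprotein and selenocysteine insertion genes 10 were listed, with 3 passing upward and 5 downward and a median of -0.19. Some enzymes that make the selenocysteine tRNA were on the lower side together with Gpx4: Sephs2, the selenophosphate synthetase (-0.91 ± 0.26, SE), and Sepsecs, which forms selenocysteine on its tRNA (-0.87 ± 0.32). Sephs1 (-0.65 ± 0.16) and Secisbp2l (-1.40 ± 0.38), relatives of the synthetase and of the selenocysteine insertion factor, lay there as well. Other selenoproteins lay on the higher side: Sepn1 (selenoprotein N, 1.08 ± 0.32) and Sepw1 (selenoprotein W, 1.24 ± 0.49). Dio2, a thyroid hormone deiodinase, passed upward at a low level, with 0.736 to 3.39 CPM in L/L lines and 1 read in each +/+ library. Selt was at 0.27 ± 0.17 and did not pass. Of 11 regulators of the Nrf2 pathway only Cul3, the scaffold of the ligase that degrades Nrf2, was listed, at 0.90 ± 0.17.

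**Figure D4:**
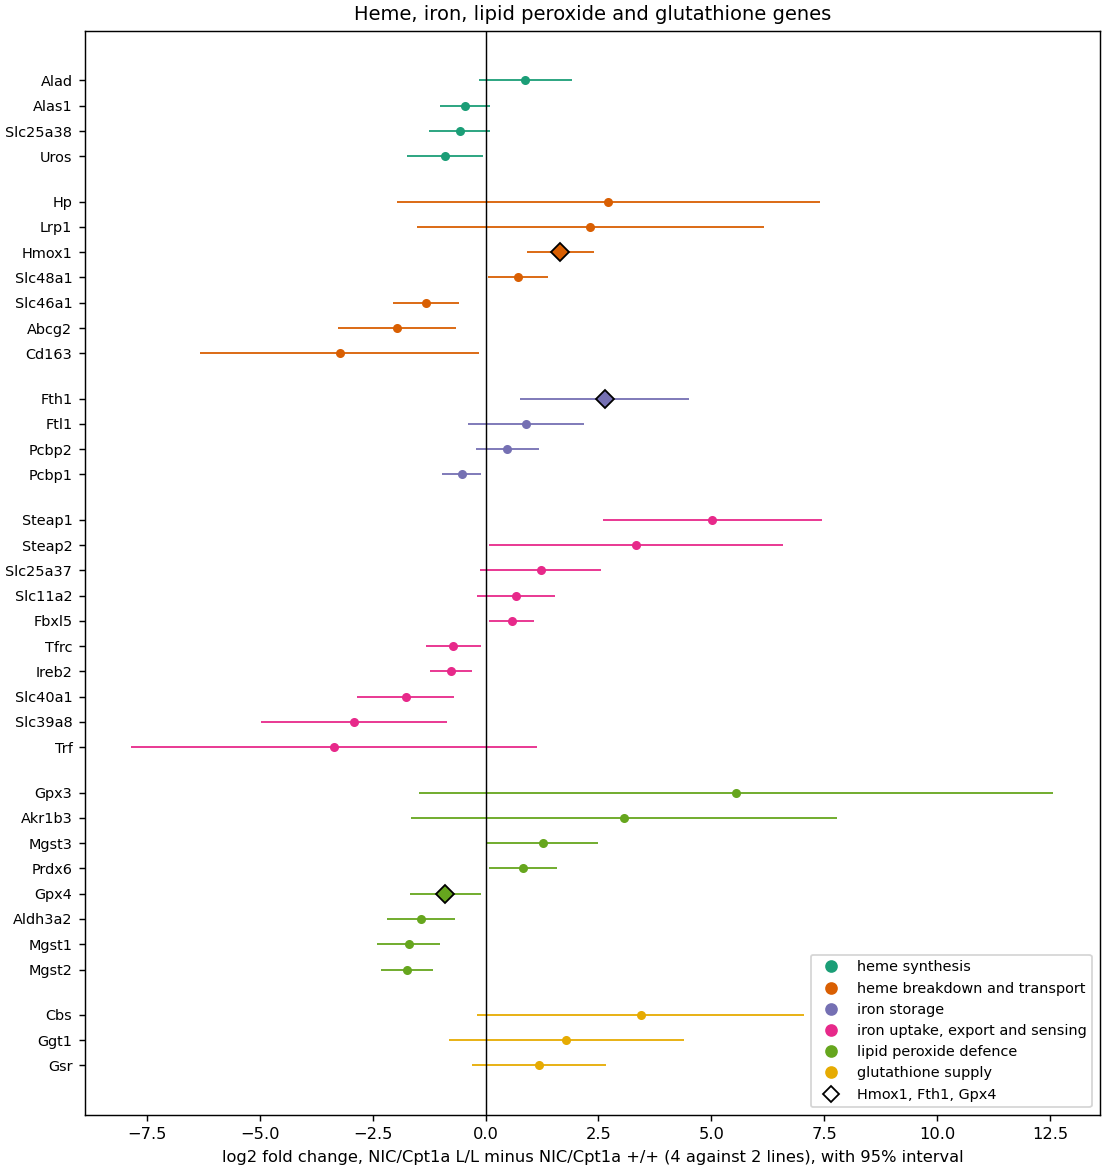
Log2 fold change, NIC/Cpt1a L/L minus NIC/Cpt1a +/+ (4 against 2 lines), with 95% intervals, of the tested genes of 6 lists, with diamonds for Hmox1, Fth1 and Gpx4. Fth1 (2.64) lay above the other ferritin and chaperone genes, while Gpx4 (-0.89) lay with Mgst1, Mgst2 and Aldh3a2 on the lower side, and 0 genes passed an adjusted p of 0.05.

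The genes whose log2 CPM followed each member most closely over the 6 lines were sought among 2770 protein-coding genes with a mean of at least 10 CPM. For Hmox1 they were Ly6a (Pearson's r = 0.993), Eno1b (0.992) and Nfil3 (0.991), and 7.80% of the genes compared had an r over 0.9. Ly6a, the stem cell antigen Sca-1, was at 261 to 613 CPM in L/L lines and at 1.52 and 9.80 CPM in +/+ lines. For Fth1 they were Pnrc2 (0.989), Rpl18 (0.989) and Tusc3 (0.985), and 5.88% of genes had an r over 0.9. Pnrc2, Rpl18 and Tusc3 differed far less between genotypes than Fth1, with log2 fold changes of 0.42, 0.31 and 0.62. For Gpx4 they were Ddrgk1 (0.994), Senp6 (0.992) and Hs3st3b1 (0.991), and 4.80% of genes had an r over 0.9. With 6 points that share a genotype split, such values are common in this table and carry no test.

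Genes next to the members gave mixed values. The nearest listed gene before Hmox1 with at least 1 CPM was Hmgxb4, 61.6 kb away, at 0.20 ± 0.19 (SE; adjusted p = 1 in edgeR's test), and the nearest after it, Ednra, lay 2562 kb away. Fth1 was followed at 79.1 kb by Fads2, a fatty acid desaturase, which was lower with overlapping groups (-1.18 ± 0.55, adjusted p = 0.470 in edgeR's test). Ahnak, 906 kb before Fth1, was higher (1.55 ± 0.40). Gpx4 was preceded at 15.7 kb by Hmha1, expressed at 0.853 to 5.31 CPM in L/L and 0.0631 to 0.219 CPM in +/+ lines. It was followed at 0.977 kb, on the opposite strand, by Sbno2, which had a like log2 fold change (-0.88 ± 0.32, adjusted p = 0.359 in edgeR's test). By line, Sbno2 was at 106 to 151 CPM in L/L lines and at 315 CPM in WT_5257 and 153 CPM in WT_8905. Its +/+ lines thus differed widely, unlike those of Gpx4. In GENCODE M21 no gene span overlaps any member, but the ends of Sbno2 and Gpx4 are 553 bases apart and those of Best1 and Fth1 are 76 bases apart. The annotation names 2 processed copies of Fth1 (Fth-ps2 and Fth-ps3) and 1 of Gpx4 (Gpx4-ps2). How reads shared with such copies were counted is not given in the sources used here, so the levels of Fth1 and Gpx4 are uncertain to that extent.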

How the data were processed

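RNA-Seq libraries of untreated tumor-derived cells were analysed. The authors used STAR for alignment to mm10 and HTSeq for counting, and deposited whole-number counts, a normalized signal (the count over the library's size factor) and FPKM. Log2 fold changes from the authors' test of genotypes are deposited too, as are its p-values before and after adjustment. None was used, except that the p-values gave the number of tests, 17561. The submitters' processing notes also name Trimmomatic, edgeR and limma. Whether counting used strand is not given in the sources used here.

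Genotypes were taken from the genotype field of the labels, since the wording of the sample titles contradicts it. Counts of duplicate libraries were summed by line and tested in R 4.3.3 with edgeR 4.0.16 (quasi-likelihood test, TMM, filterByExpr, 4268 genes kept, all 6 lines in 1 fit). The Benjamini-Hochberg adjustment counted 17561 tests. Cybrd1 did not pass the filter. Alternatives used DESeq2 1.42.0 and limma 3.58.1 on log2(FPKM + 0.1). Likeness used log2 CPM with a prior count of 2. The functions were tested on simulated data. Library totals of 15199378 to 25386785 reads were recovered from genes with at least 1000 reads, and the listed genes hold 33.3 to 34.6% of them.

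The members, gene lists and naming rules were chosen with earlier results of these data known. Some genes of the lists are not reported here, and the counts leave them out. Named genes are the members, list members in the table, the 3 protein-coding genes most like each member (mean of at least 10 CPM), and the nearest listed gene on each side (at least 1 CPM). Plots used matplotlib 3.10.9 under Python 3.11.15.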

Additional observations from a re-analysis of the deposited data

Results flagged for a closer look

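In 6 of 56 pathway genes, 1 L/L line stood apart from the other 3 by more than Dixon's limit, where chance alone flags about 1 in 20 groups. None of the members was among them. In KO_2768, Gpx3 was at 140 CPM against 2.79 CPM in the next line, Cybrd1 (an iron reductase) at 2.36 against 0.253, Trf (transferrin) at 3.33 against 0.243, and Secisbp2l at 330 against 169. KO_2768 is also the line with 1393 CPM of fibroblast markers, and the part of other cells was not tested. In KO_4258, Slc39a8 was at 32.6 CPM against 7.33 in the next line, and Mgst2 at 27.1 against 19.4.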

How the results depend on the processing

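Directions of the members held under all 17 alternatives, which reuse the same counts. Each member separated the L/L from the +/+ lines and had passed the authors' test, so a change of sign was hardly possible. With every library as a separate sample, edgeR gave Hmox1 1.56 (adjusted p = 0.000820), Fth1 2.59 (0.00795) and Gpx4 -0.95 (0.0151), and called 1035 genes raised and 1550 lowered. Adding the duplicate letter as a replicate block gave 1.55 (0.00209), 2.59 (0.0150) and -0.95 (0.0258), with 821 and 1426 genes. Both fits count duplicates of a line as independent replicates, in genes preselected on these libraries, so their small p-values overstate the evidence. The letters do not pair samples: deviations of A libraries correlated from -0.0448 to 0.0422 over 10 pairs. DESeq2 on line sums gave Hmox1 1.65 and Fth1 2.64 past the threshold and called 597 genes raised and 563 lowered. Counting only the listed genes as tests gave 71 and 148 and carried Hmox1 (1.65, adjusted p = 0.0471 in edgeR) past it, while limma on FPKM called 10 and 19. All other alternatives called 0 and 0, among them each line left out. Leaving out a line moved Hmox1 between 1.23 and 2.08, Fth1 between 2.06 and 2.83 and Gpx4 between -1.10 and -0.73. Where a +/+ line was left out, the other was assumed to vary like the L/L lines. Without WT_5257 Fth1 had an adjusted p = 1, and without WT_8905 Gpx4 had an adjusted p = 0.755 (edgeR). Median-of-ratios factors moved the median of all genes by -0.12 and the authors' size factors by 0.10. Counts among L/L lines and between +/+ lines stayed within 1.5 times.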
